A study of Mus musculus with 4 samples.

Results

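BiP, encoded by *Hspa5*, is the Hsp70 chaperone of the endoplasmic reticulum (ER), and 10 genes of the machinery around it were followed in ribosome profiling of early meiotic germ cells. The genes were *Hspa5* itself, *Hsp90b1*, *Hyou1*, *Sil1*, *Dnajb9*, *Dnajb11*, *Dnajc3*, *Sdf2l1*, *Manf* and *Creld2*, and a gene was kept where its symbol stood in the authors' single table. All 10 did, out of 11598 genes in the table. The members were thus selected on their reads, since every gene of the table carries at least 10 over the 4 libraries, and no member was lost to that limit. The symbols themselves had been proposed with results of these data known, so that what follows describes this machinery and tests nothing about how it was picked.

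Ribosome-protected fragments (RPFs, the stretches of mRNA that a ribosome covers) were sequenced from leptotene and zygotene spermatocytes that had been sorted by flow cytometry from mouse testes at 12 dpp (days post partum), with 2 Control and 2 *Eef1g*-cKO libraries. In *Eef1g*-cKO mice, on a C57BL/6J background, a floxed stretch of exons of *Eef1g* was deleted by *Stra8*-GFPCre, a Cre that acts in male germ cells from spermatogonia onward, so somatic cells of the testis keep the gene. Controls are wild type in the labels and littermates in the paper. *Eef1g* encodes the gamma subunit of the elongation factor complex that reloads eEF1A for the delivery of aminoacyl-tRNA to the ribosome. RPF abundance is given as FPKM, the reads on a gene per kilobase of its length, scaled to the library's total of reads on genes. It follows the amount of an mRNA as well as the ribosomes on each copy, and in a sorted population fewer cells of a type and less RNA per cell cannot be told apart.

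Proteins that enter the ER fold with the help of BiP, which binds exposed hydrophobic stretches and releases them in a cycle driven by ATP. J proteins (here *Dnajb9*, *Dnajb11* and *Dnajc3*) bring clients to BiP and start hydrolysis, nucleotide exchange factors (*Hyou1* and *Sil1*) open it again, and GRP94, the Hsp90 of the ER encoded by *Hsp90b1*, takes over some of its clients. Many of these genes are known targets of the unfolded protein response (UPR), in which ATF6 and XBP1 act on promoters that carry an ER stress response element.

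That element can be shown on the genes themselves. The RefSeq promoter windows of GRCm38.p6, from 250 bases before to 50 bases after the gene start, were searched on both strands for the ER stress response element ERSE (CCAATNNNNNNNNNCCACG), for ERSE-II (ATTGGNCCACG) and for the unfolded protein response element UPRE (TGACGTGG). The table of windows held 7 of the 10 genes and not *Hyou1*, *Manf* and *Sil1*. ERSE stood in the windows of 4 of these 7 genes, *Hspa5*, *Hsp90b1*, *Dnajc3* and *Creld2*, against 37 of 27025 genes with a window (0.137%). Since many of the members are known targets of the UPR, the matches are shown as a description and test nothing. The 250 bases before the start of *Hspa5*, at chr2:34771840-34772089 on the plus strand, and of *Hsp90b1*, at chr10:86705445-86705694 on the minus strand, are printed 5′ to 3′ because these are the genes of the set with the highest FPKM. Capitals mark ERSE.
Hspa5: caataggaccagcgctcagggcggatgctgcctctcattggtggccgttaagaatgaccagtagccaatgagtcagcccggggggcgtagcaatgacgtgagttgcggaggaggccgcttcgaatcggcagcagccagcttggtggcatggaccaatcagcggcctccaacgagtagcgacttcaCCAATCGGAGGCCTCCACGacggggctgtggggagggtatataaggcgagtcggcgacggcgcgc
Hsp90b1: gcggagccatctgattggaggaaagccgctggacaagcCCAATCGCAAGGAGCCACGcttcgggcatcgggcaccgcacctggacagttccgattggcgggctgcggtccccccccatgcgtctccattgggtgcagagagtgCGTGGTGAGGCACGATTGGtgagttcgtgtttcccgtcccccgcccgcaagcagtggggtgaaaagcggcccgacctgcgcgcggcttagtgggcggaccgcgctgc

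The ERSE of *Hspa5* lay at -65 to -47 from the start. *Hsp90b1* carried ERSE at -212 to -194 and, on the opposite strand, at -107 to -89. With 1 mismatch allowed in the 10 fixed bases *Hsp90b1* had a further copy, at -172, which made 3, and 0.0074% of 27025 genes with a window had as many. The shorter stretches below, with 20 bases on either side of the motif for the ERSE genes and 8 for *Dnajb11*, show the other motifs in the same way, at chr14:118937807-118937865 (plus strand) for *Dnajc3*, chr15:88819500-88819558 (plus strand) for *Creld2* and chr16:22857844-22857870 (plus strand) for *Dnajb11*. In *Creld2* the motif is on the opposite strand, so the capitals show its reverse complement.
Dnajc3: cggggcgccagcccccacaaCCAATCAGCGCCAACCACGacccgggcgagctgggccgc
Creld2: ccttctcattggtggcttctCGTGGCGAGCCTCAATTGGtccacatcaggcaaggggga
Dnajb11: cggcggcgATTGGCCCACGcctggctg

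These copies began at -105 in *Dnajc3*, at -126 in *Creld2* and, as ERSE-II, at 8 bases into the transcript in *Dnajb11*. ERSE-II stood in the windows of 12 of the 27025 genes (0.0444%). UPRE stood in the windows of 193 genes (0.714%) and in the window of none of the 7 members. The windows of *Dnajb9* and *Sdf2l1* held none of the 3 motifs. A match is a run of letters and not a measured binding site, and a window without a match says only that these letters are not in it.

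**Figure D1:**
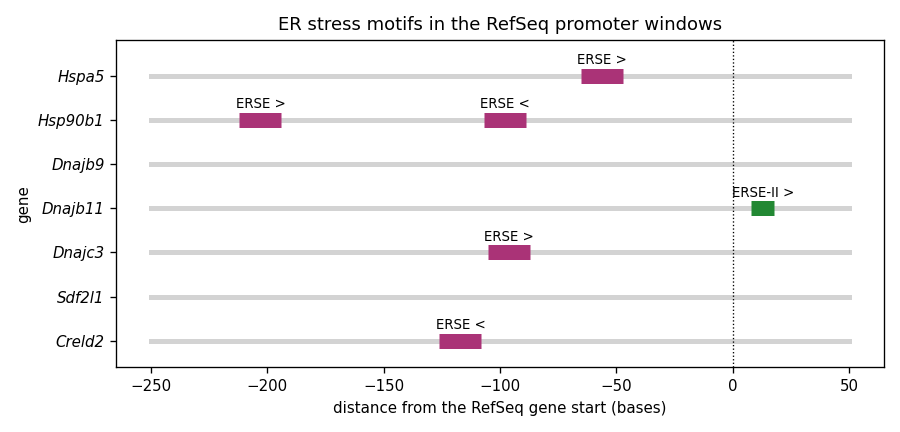
Positions of ERSE and ERSE-II in the promoter windows of the 7 genes that have one, in bases from the RefSeq gene start (x axis, 0 marks the start). Coloured blocks are motifs, the signs > and < give the strand, and grey lines are the windows, from 250 bases before to 50 after the start; *Hsp90b1* is the gene with 2 ERSE copies, and *Dnajb9* and *Sdf2l1* show none.

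Depth differed between the genotypes. The Control libraries held 2479504 and 1384282 reads on genes against 223906 and 407979 for *Eef1g*-cKO, so that the Control libraries were on average 6.11 times as deep, and 22 and 219 genes of the table had no read there against 2086 and 1452 in *Eef1g*-cKO. The targeted gene matched the labels, with 107 and 58 reads on *Eef1g* in Control against 0 and 4 in the knockout libraries. Markers of leptotene and zygotene spermatocytes (7 of 8 listed genes in the table) summed to 1440 and 1170 FPKM in Control against 3517 and 3066 FPKM in *Eef1g*-cKO, with 6 of the 7 above both Control libraries. Spermatogonial markers (7 of 7) summed to 1377 and 1610 FPKM against 227 and 217 FPKM, with 5 of the 7 below both Control libraries. Sertoli cell markers (7 of 8 in the table) summed to 375 and 232 FPKM against 353 and 292 FPKM, yet 4 of the 7 lay below both Control libraries and none above. Leydig cell markers (3 of 5) summed to 3.10 and 5.82 against 2.23 and 1.22 FPKM, peritubular markers (2 of 3) to 34.1 and 19.4 against 5.21 and 17.7 FPKM (both genes below both Control libraries), and markers of pachytene spermatocytes and spermatids (3 of 7) to 31.4 and 48.0 against 25 and 38.9 FPKM. No macrophage or plasma cell marker was in the table. Of the 10475 genes tested below, 24.6% had both *Eef1g*-cKO values above both Control values, and 37.7% had both below. No Sertoli cell or peritubular marker had an adjusted p under 0.05 in the limma fit described below (lowest 0.098, *Cldn11*). The paper stained sorted cells for SYCP3 and γH2AX and reports a similar share of leptotene and zygotene spermatocytes in both genotypes. Most of the spermatogonial, spermatocyte and Sertoli cell markers, the peritubular markers and the depth moved with the genotype, as every change below did. Their part in those changes was not tested.

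More of the RPFs lay on the BiP machinery in *Eef1g*-cKO. The 10 genes together took 12148 and 9945 reads per 1000000 (the scale of all such totals here) in Control against 28275 and 28663 in *Eef1g*-cKO, a 2.58-fold higher mean. The genotypes did not overlap, and the exact two-sided permutation test gave p = 0.333, the smallest value that 2 libraries against 2 allow. Leaving out the reads on small structural RNA genes, which took between 8.82% and 14.4% of a library, the totals were 14200 and 11133 in Control against 31010 and 32019 in *Eef1g*-cKO.

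The change from Control to *Eef1g*-cKO was then tested with limma on log2(FPKM + 1), over the 10475 genes that averaged 1 FPKM or more, all 10 members among them. A gene was called where its Benjamini-Hochberg adjusted p over all these genes was under 0.05 and its log2 fold change was above 1 in either direction. By this rule 6 of the 10 genes were called increased (*Hsp90b1*, *Sil1*, *Dnajb11*, *Dnajc3*, *Manf* and *Creld2*) and none was called decreased, where 2.87% of all tested genes (301) were called increased and 4.97% (521) decreased. With each library centred on its median, 8 members were called, and the split over all genes turned to 521 increased and 383 decreased. By unadjusted p, 8 were increased, *Hspa5* and *Dnajb9* joining, against a background of 7.32%. For 9 members the lower *Eef1g*-cKO value exceeded the higher Control value, which 24.6% of all tested genes showed, and for none was the reverse seen, which 37.7% showed. The median log2 fold change over the 10 genes was 1.28, and that over all tested genes was -0.23. edgeR's quasi-likelihood test on the recovered reads called 8 of the 10 increased, where it called 8.75% of the genes it tested. The calls of limma rest on both Control libraries, since without either of them it called no gene at all, member or other, by adjusted p. With any 1 library left out, the median log2 fold change of the members ran from 1.21 to 1.47 with limma. That over all tested genes ran from -0.25 to -0.17. With edgeR, left-out fits that were added after seeing the data gave 1.22 to 1.54 for the members and -0.22 to 0.002 over all tested genes.

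**Figure D2:**
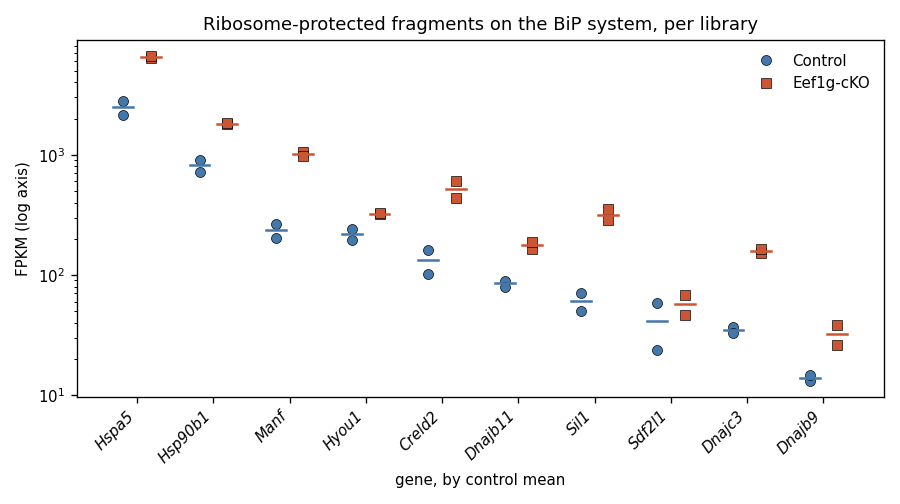
RPF abundance of the 10 genes in each library, in FPKM on a log axis, with Control as circles, *Eef1g*-cKO as squares and short lines for the group means. *Hspa5* is highest at 2149 to 6586 FPKM, *Dnajb9* lowest at 13.2 to 38.3 FPKM, and the symbols of the genotypes overlap for *Sdf2l1* alone.

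*Hspa5* and *Hsp90b1*, the chaperones proper, carried most of these reads. *Hspa5* had 2824 and 2149 FPKM in the Control libraries and 6438 and 6586 FPKM in the *Eef1g*-cKO libraries, from 18318, 7783, 3771 and 7029 reads. It was the 3rd most occupied protein-coding gene of the table in the first Control library, the 12th in the second and the 3rd in both *Eef1g*-cKO libraries. The libraries of the genotypes did not overlap, and the lowest *Eef1g*-cKO value was 2.28 times the highest Control value. The log2 fold change was 1.40 (SE 0.34, limma adjusted p = 0.0607), which is past the fold threshold and short of the p threshold. edgeR gave 1.46 with an adjusted p of 2.53e-04. The mean was 2487 ± 477 FPKM (SD, n = 2) in Control, where the replicates were further apart, and 6512 ± 105 FPKM (SD, n = 2) in *Eef1g*-cKO.

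*Hsp90b1*, which encodes GRP94, had 911 and 718 FPKM in Control and 1789 and 1838 FPKM in *Eef1g*-cKO. All of the *Eef1g*-cKO values were higher, and the log2 fold change was 1.16 (SE 0.25, limma adjusted p = 0.0497). Its adjusted p stood just inside the threshold and rose to 0.0557 with a pseudocount of 0.5.

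The exchange factors differed in how far they moved. *Sil1*, which encodes a nucleotide exchange factor of BiP whose loss in people causes Marinesco-Sjögren syndrome, had 71.2 and 50.2 FPKM in Control and 284 and 351 FPKM in *Eef1g*-cKO. These came from 300, 118, 108 and 243 reads. Its log2 fold change of 2.38 (SE 0.25, limma adjusted p = 0.0225) was the highest of the 10 genes and lay at the 99.5th percentile of all tested genes. *Hyou1*, which encodes the large Hsp70-related exchange factor GRP170, had 196 and 240 FPKM in Control and 318 and 327 FPKM in *Eef1g*-cKO. Its genotypes did not overlap either, yet its log2 fold change was 0.57 (SE 0.21, limma adjusted p = 0.132), the lowest of the set and under the fold threshold. edgeR gave it 0.64 with an adjusted p of 0.0295, also under the fold threshold.

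The J proteins fell on both sides of the call. *Dnajc3*, which encodes P58IPK, a J protein also known as an inhibitor of eIF2alpha kinases, had 36.7 and 33.0 FPKM in Control and 153 and 163 FPKM in *Eef1g*-cKO. Replicates were close in both genotypes, and the log2 fold change was 2.15 (SE 0.20, limma adjusted p = 0.0212). *Dnajb11*, which encodes ERdj3, a J protein that binds unfolded clients directly, had 89.7 and 79.9 FPKM in Control and 166 and 189 FPKM in *Eef1g*-cKO. Its log2 fold change of 1.05 (SE 0.20, limma adjusted p = 0.0407) was just above the fold threshold. *Dnajb9*, which encodes ERdj4, a J protein known to restrain the sensor IRE1 through BiP, was the least occupied gene, with 13.2 and 14.7 FPKM in Control and 38.3 and 26.3 FPKM in *Eef1g*-cKO. It rested on 61, 38, 16 and 20 reads, and its log2 fold change of 1.13 (SE 0.30) had an adjusted p of 0.0722 by limma and of 0.0347 by edgeR.

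*Sdf2l1*, whose product forms a complex with ERdj3, was the exception. It had 23.7 and 58.7 FPKM in Control and 68.5 and 46.5 FPKM in *Eef1g*-cKO, so the genotypes overlapped. It rested on 65, 90, 17 and 21 reads, and the 2 Control libraries differed more from each other than did the group means. The log2 fold change was 0.58 (SE 0.46, limma adjusted p = 0.424) and turned to -0.06 without the first Control library. Whether *Sdf2l1* changed could not be determined at this spread, its 95% interval reaching from -0.55 to 1.71.

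*Manf* and *Creld2*, small ER proteins that are induced by ER stress and can be secreted, had some of the widest gaps. *Manf*, whose product binds the nucleotide-binding domain of BiP, had 265 and 204 FPKM in Control and 1045 and 982 FPKM in *Eef1g*-cKO. Its log2 fold change was 2.12 (SE 0.23, limma adjusted p = 0.0225), and its place among protein-coding genes went from the 136th and the 290th in the Control libraries to the 30th and the 28th in the *Eef1g*-cKO libraries. *Creld2*, which encodes a protein with disulfide isomerase activity, had 103 and 161 FPKM in Control and 602 and 437 FPKM in *Eef1g*-cKO. Its replicates were further apart in both genotypes, and the log2 fold change was 1.99 (SE 0.30, limma adjusted p = 0.0307).

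**Figure D3:**
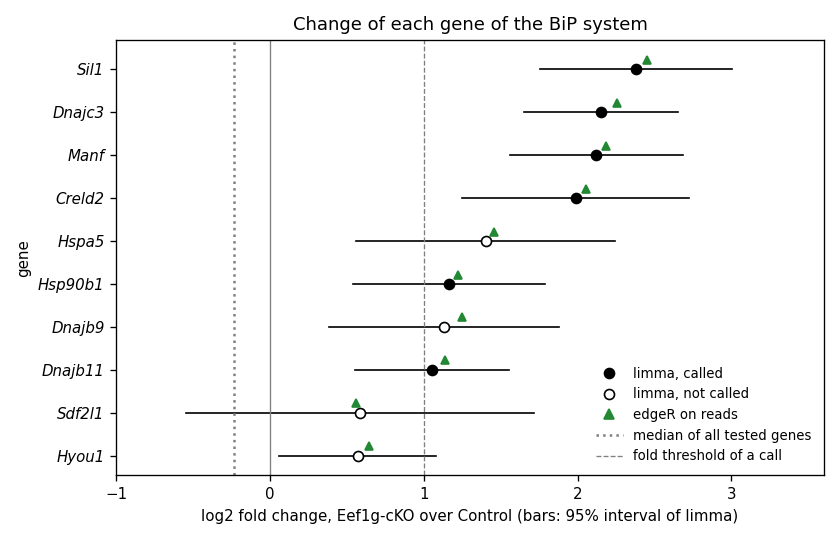
Log2 fold change of each gene, *Eef1g*-cKO over Control, by limma (circles, with 95% intervals as bars; filled where called) and by edgeR on reads (triangles). *Sil1*, *Dnajc3*, *Manf* and *Creld2* lie between 1.99 and 2.38, *Hspa5*, *Hsp90b1*, *Dnajb9* and *Dnajb11* between 1.05 and 1.40, and *Hyou1* and *Sdf2l1* below 0.6, while the dotted line marks the median of all tested genes at -0.23.

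The genotypes shared the top and the foot of the order of levels. By mean FPKM in Control it ran *Hspa5*, *Hsp90b1*, *Manf*, *Hyou1*, *Creld2*, *Dnajb11*, *Sil1*, *Sdf2l1*, *Dnajc3* and *Dnajb9*. The ranges of neighbours overlapped there for *Manf* and *Hyou1*, for *Sil1* and *Sdf2l1*, and for *Sdf2l1* and *Dnajc3*. In *Eef1g*-cKO the order was *Hspa5*, *Hsp90b1*, *Manf*, *Creld2*, *Hyou1*, *Sil1*, *Dnajb11*, *Dnajc3*, *Sdf2l1* and *Dnajb9*, with an overlap of neighbours for *Hyou1* and *Sil1* alone. FPKM divides by the whole deposited gene length, of which the coding sequence makes up 24.5% for *Manf* (540 of 2206 bases), 29.2% for *Dnajc3* and 87.3% for *Hsp90b1*, whereas ribosomes cover coding sequence. Per kilobase of coding sequence *Manf*, at 956 ± 176 reads per 1000000 (SD, n = 2) in Control, stood level with *Hsp90b1*, at 933 ± 156, and in *Eef1g*-cKO it was higher, at 4140 ± 180 against 2077 ± 40.0. *Hspa5* stayed first on this scale, at 3305 ± 634 in Control and 8656 ± 139 in *Eef1g*-cKO.

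*Hspa5* took about the same share of the set in both genotypes. It held 60.8% and 56.5% of the reads on the 10 genes in Control (95% Wilson intervals 60.3% to 61.4% and 55.7% to 57.4%) and 59.6% and 60.1% in *Eef1g*-cKO (58.3% to 60.8% and 59.2% to 61.0%), intervals that cover counting error only. The means differed by 1.16 percentage points, less than the spread between the Control libraries (exact permutation p = 1.0). *Hsp90b1* held 20.7% and 19.9% in Control against 17.5% and 17.7% in *Eef1g*-cKO, lower in both *Eef1g*-cKO libraries (exact permutation p = 0.333, the smallest possible).

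Against *Hspa5* in the same library, *Sil1*, *Manf* and *Dnajc3* stood higher in *Eef1g*-cKO. *Sil1* stood at 2.52% and 2.33% of the FPKM of *Hspa5* in Control and at 4.41% and 5.32% in *Eef1g*-cKO. *Manf* went from 9.37% and 9.48% to 16.2% and 14.9%, and *Dnajc3* from 1.30% and 1.53% to 2.38% and 2.47%. These 3 genes were higher against *Hspa5* in both *Eef1g*-cKO libraries than in either Control library. *Hsp90b1* went the other way, from 32.3% and 33.4% to 27.8% and 27.9%, as did *Hyou1*, from 6.95% and 11.2% to 4.95% and 4.96%, and *Dnajb11*, from 3.18% and 3.72% to 2.57% and 2.86%. *Creld2*, *Dnajb9* and *Sdf2l1* overlapped between the genotypes on this scale.

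In a limma fit of log2(FPKM + 1) minus that of *Hspa5*, *Sil1* was the 1 member that rose more than *Hspa5*, by 0.98 on the log2 scale (SE 0.33, adjusted p = 0.0324), and 0.277% of the tested genes did. None of the members rose less than *Hspa5* by adjusted or unadjusted p, where 63% (by adjusted p) of the tested genes did. *Manf* (0.72, adjusted p = 0.0914), *Dnajc3* (0.75, adjusted p = 0.0788) and *Hyou1* (-0.83, adjusted p = 0.0747) did not pass. The spread of *Hspa5* over 4 libraries enters every gene of that fit. With the separate standard errors of both genes combined, the difference for *Sil1* no longer passed (95% interval -0.07 to 2.03, adjusted p = 0.0969), and in the limma fit it missed the threshold when the second Control library or either *Eef1g*-cKO library was left out.

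**Figure D4:**
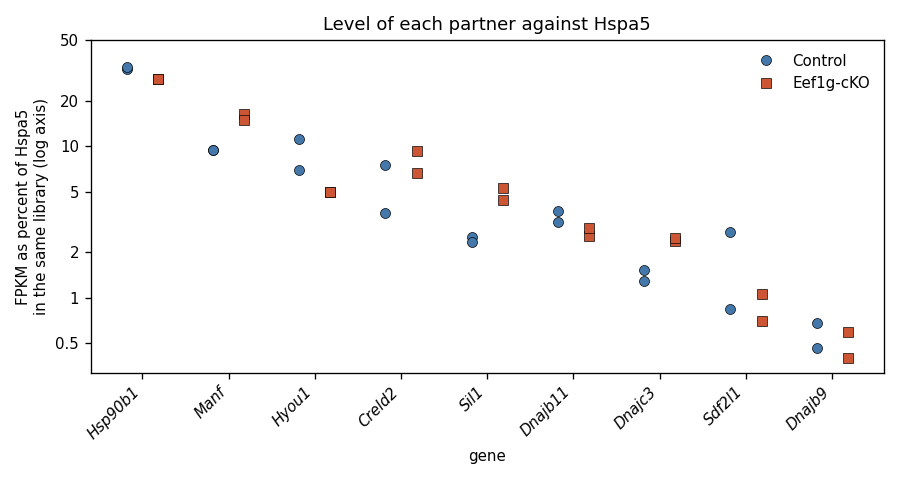
FPKM of each partner as a percentage of the FPKM of *Hspa5* in the same library, on a log axis, with Control as circles and *Eef1g*-cKO as squares. *Manf*, *Sil1* and *Dnajc3* are higher in both *Eef1g*-cKO libraries, *Hsp90b1*, *Hyou1* and *Dnajb11* lower, and *Creld2*, *Dnajb9* and *Sdf2l1* overlap.

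Further genes of the ER lay on both sides of the call. Among 10 further genes of the ER Hsp70 system, limma called 2 increased, both of them J proteins, and none decreased. The median log2 fold change was 0.77. Over all tested genes limma called 2.87% increased and 4.97% decreased, the background for the lists below as well. By unadjusted p 1 of the 10 was decreased, *Cdnf*. edgeR tested 7 of the 10, *Cdnf* not among them. It called 3 increased and none decreased, against 8.75% increased over all genes it tested. *Dnajc10*, which encodes ERdj5, a J protein that reduces disulfides, had 19.1 and 18.2 FPKM in Control and 76.0 and 67.7 FPKM in *Eef1g*-cKO (log2 fold change 1.89, SE 0.23, limma adjusted p = 0.0255). *Sec63*, the J protein of the translocation channel and the gene of this list with the highest mean over all 4 libraries, had 30.5 and 29.5 FPKM in Control and 82.2 and 67.5 FPKM in *Eef1g*-cKO (log2 fold change 1.28, SE 0.23, limma adjusted p = 0.0375). *Cdnf*, the paralog of *Manf* and named here after its values were seen, had 35 and 14 reads (4.68 and 3.36 FPKM) in Control. It had none in either *Eef1g*-cKO library, where a count of 0 allows up to 3 reads. The Control libraries were on average 6.11 times as deep, so these read counts do not share a scale and overstate the drop.

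Of 5 folding partners that are found with BiP, 2 disulfide isomerases were called increased and none decreased, with a list median of 0.48. *Pdia6*, the highest of them by the mean over all 4 libraries, had 772 and 770 FPKM in Control and 1738 and 1761 FPKM in *Eef1g*-cKO (log2 fold change 1.18, SE 0.23, limma adjusted p = 0.0417). *P4hb* had 457 and 550 FPKM in Control and 1879 and 1676 FPKM in *Eef1g*-cKO (log2 fold change 1.82, SE 0.24, limma adjusted p = 0.0283). *Pdia4*, a disulfide isomerase of the same list, was lower in both *Eef1g*-cKO libraries and was not called. It had 250 and 300 FPKM in Control and 207 and 191 FPKM in *Eef1g*-cKO (log2 fold change -0.46, SE 0.21, limma adjusted p = 0.191). Of 9 sensors and factors of the UPR (*Atf6*, *Atf6b*, *Ern1*, *Eif2ak3*, *Xbp1*, *Atf4*, *Ddit3*, *Mbtps1* and *Mbtps2*), limma called none by adjusted p. By unadjusted p it called 1 increased, *Mbtps2* (log2 fold change 1.19, SE 0.48), whose edgeR adjusted p was 0.0717. edgeR called 1 increased, a different gene. Only *Ern1* and *Atf6b* had an edgeR adjusted p under 0.05 (0.0398 and 0.0206). The median over the 9 genes was 0.40. *Atf6b*, the most occupied of them, had 36.1 and 50.4 FPKM in Control and 67.9 and 77.4 FPKM in *Eef1g*-cKO (log2 fold change 0.75, SE 0.25, limma adjusted p = 0.114).

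Chaperones of the cytosol and the mitochondria had a median log2 fold change of -0.10 over the 20 of 21 that were tested. Limma called 1 of them increased and 1 decreased, where it called 2.87% and 4.97% of all tested genes. edgeR tested 18 of them and called 1 increased and 3 decreased. Of the 8056 genes it tested, it called 705 increased and 904 decreased. *Hspa4l*, an Hsp110 family member, had 45.6 and 43.4 FPKM in Control and 107 and 99.2 FPKM in *Eef1g*-cKO (log2 fold change 1.19, SE 0.20, limma adjusted p = 0.0354). *Hsp90ab1*, the constitutive cytosolic Hsp90 and the most occupied gene of the list, had 1195 and 1342 FPKM in Control and 454 and 569 FPKM in *Eef1g*-cKO, and fell by 1.31 on the log2 scale (SE 0.24, limma adjusted p = 0.0379).

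**Figure D5:**
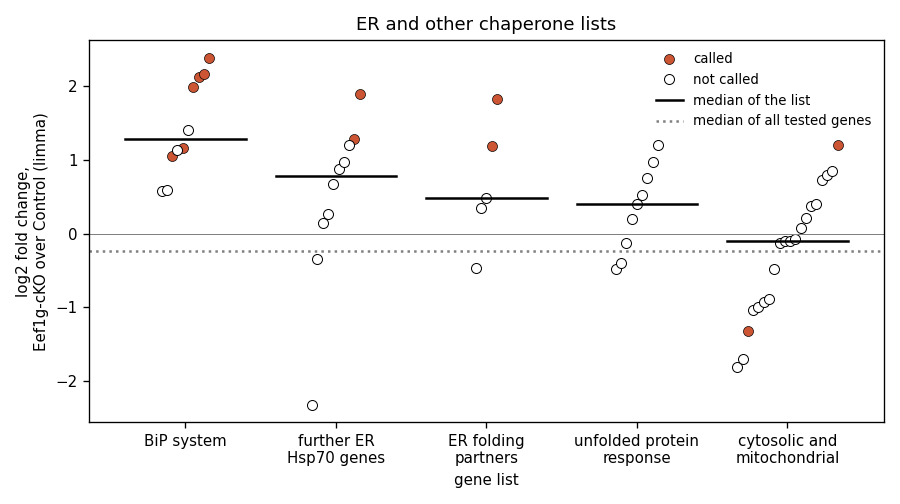
Log2 fold change by limma, *Eef1g*-cKO over Control, of each tested gene of the BiP system and of 4 further lists, filled where called, with a line at the median of each list and a dotted line at the median of all tested genes (-0.23). The BiP system has its median at 1.28, the ER lists theirs between 0.40 and 0.77, and the cytosolic and mitochondrial chaperones theirs at -0.10; the lowest circle among the further ER genes is *Cdnf*, whose fitted value depends on the pseudocount because no *Eef1g*-cKO read fell on it.

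For 6 members the difference in log2 fold change from a gene of the same family or role outside the set was tested, with the standard errors of both genes combined and p adjusted over all genes set against the same partner. The pairs were formed with these data known, and other relatives outside the ER were not tested against the members. Among these, *Hspa2* changed by 0.79 (SE 0.23), *Hspa9* by 0.21 (SE 0.19) and *Hsp90aa1* by -0.10 (SE 0.19) on the log2 scale. Of the 20 tested cytosolic and mitochondrial chaperones, 7 were above both Control libraries in both *Eef1g*-cKO libraries (24.6% of tested genes) and 11 below (37.7%). *Hspa5* exceeded *Hspa8*, the constitutive cytosolic Hsp70 (48.9 and 75.9 FPKM in Control, 12.7 and 25.6 FPKM in *Eef1g*-cKO), by 3.10 (95% interval 1.79 to 4.40, adjusted p = 0.0299). *Hsp90b1* exceeded *Hsp90ab1* by 2.48 (1.62 to 3.33, adjusted p = 0.0153), and *Sil1* exceeded *Hspbp1*, a cytosolic exchange factor, by 3.41 (2.47 to 4.35, adjusted p = 0.0429). In these 3 pairs the ER member was higher and its partner lower in both *Eef1g*-cKO libraries than in both Control libraries. 2 of the partners rested on few *Eef1g*-cKO reads. *Hspa8* had 255 and 221 reads in Control against 6 and 22 in *Eef1g*-cKO, and *Hspbp1* 113 and 71 against 6 and 8. *Hspa8* and *Hsp90ab1* have processed pseudogenes with which their reads could be shared, and none of the 3 differences passed without the first or without the second Control library. Those for *Hspa5* and *Hsp90b1* also failed without the first *Eef1g*-cKO library, and that for *Sil1* with no filter on low genes (adjusted p = 0.0587).

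The ER paralogs that were tested were not told apart. *Manf* and its paralog *Cdnf* (log2 fold change -2.32, SE 0.51, limma adjusted p = 0.0507) were not tested as a pair. *Creld2* and *Creld1* differed by 1.12 (95% interval -0.13 to 2.36, adjusted p = 0.173) and *Sdf2l1* and *Sdf2* by 0.93 (-0.37 to 2.23, adjusted p = 0.338). *Hyou1* and *Hsph1*, its Hsp110 relative in the cytosol, differed by 0.64 (-0.43 to 1.71, adjusted p = 0.493). These intervals leave room for differences in either direction.

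ERSE stood in members that were called and in a member that was not. Of the 4 members with ERSE, *Hsp90b1*, *Dnajc3* and *Creld2* were called and *Hspa5* was not by limma, while *Dnajb11*, called as well, had ERSE-II, and *Dnajb9* and *Sdf2l1*, with neither, were not called by limma. edgeR called *Hspa5* and *Dnajb9* as well. Outside the set, 11 tested genes had ERSE in their window. Limma called 2 of them increased, *Calr* and *Pdia6*, and 1 decreased, *Tdrd9*, and their median log2 fold change was -0.62. *Calr*, which encodes the ER chaperone calreticulin, had 1976 and 1476 FPKM in Control and 5011 and 5248 FPKM in *Eef1g*-cKO (log2 fold change 1.59, SE 0.32, limma adjusted p = 0.0447). The *Eef1g*-cKO values were both above the Control values for 3 of the 11 genes and both below for 5. Over all tested genes these shares were 24.6% and 37.7%. Some of the 11 lay near the floor, such as *Xlr3a*, with 1.22 and 4.82 FPKM in Control and 0 in both *Eef1g*-cKO libraries. ERSE-II stood in the windows of 7 other tested genes, with a median log2 fold change of 0.46. Limma called 1 of these 7 increased, *Herpud1*. Both *Eef1g*-cKO values were above the Control values for 2 of the 7 and below for 2.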

How the data were processed

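Ribo-seq libraries of sorted 12 dpp leptotene and zygotene spermatocytes (2 Control, 2 *Eef1g*-cKO) were compared. Per the labels the replicates are independent biological ones, without naming animals, and p-values measure the spread between these libraries. The authors deposited 1 table with FPKM per library and gene length. It also holds a signal, the authors' count of each gene divided by a size factor, which gave whole reads for 100% of values in each library (within a relative difference of 1e-06). Columns of the authors' own comparison (fold changes and p-values) were not used. The submitters' processing notes name cutadapt, Bowtie, STAR, mm10 and hg38, and the paper RiboMiner; counter, annotation and the role of each tool are not given in the sources used here.

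limma 3.58.1 (R 4.3.3; trended eBayes) was run on log2(FPKM + 1) for genes averaging 1 FPKM or more, two-sided, with Benjamini-Hochberg adjustment. Fold changes on this scale understate those of low genes. edgeR 4.0.16 and DESeq2 1.42.0 on the recovered reads, other pseudocounts (0.5 and 5), filters (none and 5 FPKM), centring, TMM scaling, no trend, reads thinned to 223906 per library, a replicate block and left-out libraries were alternatives. The limma, edgeR and DESeq2 fits at their main settings, and the limma fit relative to a reference gene, were tested on simulated data. The combined standard errors and the other settings were not. Reads without molecular identifiers are not independent molecules, so intervals on shares cover counting error only. Genes outside the set were named where called, or where highest in their list by mean FPKM over all libraries. *Cdnf*, *Pdia4*, *Mbtps2*, *Ern1*, *Hspa2*, *Hspa9*, *Hsp90aa1* and *Xlr3a* were named after their values were seen. The members and lists were chosen with earlier results of these data known. Promoter windows are RefSeq's (GRCm38.p6). Figures used matplotlib 3.10.9, and exact tests scipy 1.17.1 in Python 3.11.15.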

Additional observations from a re-analysis of the deposited data

How the results depend on the processing

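Limma called 6 of the 10 members. It called 5 to 8 of them with pseudocounts of 0.5 and 5, other filters, centring or TMM scaling. edgeR called 8 with each scaling and filter, and DESeq2 7. Limma called 0 members, and 0 genes of the whole table, without a trend in the prior variance and with reads thinned to the depth of the shallowest library. With these settings the counts were also 0 for the further ER Hsp70 genes (2 increased as reported), the ER folding partners (2 increased) and the cytosolic and mitochondrial chaperones (1 increased, 1 decreased). Thinning takes reads from the deeper libraries by construction, and the cause of either change was not tested.

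The other counts moved as follows, and the cause was not tested. With no filter 1 of the ER folding partners was called increased, and *Cdnf* made 1 of the further ER Hsp70 genes decreased, as with edgeR without a filter. The decreased cytosolic and mitochondrial chaperones came to 3 with a pseudocount of 5, with the filter at 5 FPKM, with edgeR under each scaling and filter, and with DESeq2. edgeR called 1 gene of the unfolded protein response increased under each scaling and filter. Centring raised the median log2 fold change of the members from 1.283 to 1.496 and moved that of all genes from -0.23 to -0.02. Over all genes, limma called 301 increased and 521 decreased, edgeR 705 and 904, DESeq2 502 and 451. With both genes' standard errors combined, 0 members rose more than *Hspa5*. Per kilobase of coding sequence, 3 of the 10 genes kept their place in the Control order of levels and 4 in the *Eef1g*-cKO order.

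With 1 library left out in turn, limma called 0 members without either Control library. The edgeR fits with a library left out were an alternative chosen after seeing the data. The median log2 fold change of the members ranged from 1.21 to 1.47 with limma and from 1.22 to 1.54 with edgeR (1.44 without the second *Eef1g*-cKO library). The counts with limma and edgeR ranged from 0 to 3 for increased further ER Hsp70 genes, 0 to 1 for decreased ones, 0 to 2 for increased ER folding partners, 0 to 1 for increased genes of the unfolded protein response, and from 0 to 2 and 0 to 3 for increased and decreased cytosolic and mitochondrial chaperones. With limma these were 0 to 2, 0 to 1, 0 to 1, 0 to 1, 0 to 1 and 0 to 2. Of the members, 0 to 2 rose more and 0 to 2 rose less than *Hspa5*. The total on the members was 2.34 to 2.86 times as high in *Eef1g*-cKO, and the difference in the share of *Hspa5* ran from -0.98 to 3.30 percentage points. The log2 fold change of *Sdf2l1* ran from -0.055 without the first Control library to 1.22 without the second with limma, and was -0.019 without the first with edgeR. Relative to *Hspa5*, the change of *Dnajb9* ran from -0.55 without the first *Eef1g*-cKO library to 0.011 without the second (0.0017 without the second Control library), and that of *Sdf2l1* from -1.65 to 0.015 without the first and the second Control library. Where a genotype is left with 1 library, it is assumed to vary like the other.

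The replicate numbers shared by the genotypes are not stated to pair the libraries. The differences between replicates had a correlation of -0.008 over genes. This cannot exclude a pairing, since the *Eef1g*-cKO libraries had a median of only 5 and 8 reads per gene. With the replicate block, limma called 5 members, 1 increased ER folding partner and 3 decreased cytosolic and mitochondrial chaperones, 0 members rose more than *Hspa5*, and over all genes 424 were called increased and 822 decreased.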
